A study of Canis lupus familiaris with 12 samples.

Results

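The 9 genes described here, APOE, APOC1, APOD, CLU, ABCA1, ABCG1, LRP1, VLDLR and LCAT, carry, load, modify or take up lipid in the brain. They were picked by symbol from the 31158 gene models of the hippocampal table, and all 9 were found there. APOE and APOC1 were picked because their values were higher in pacing, so their difference between the arms is given as a description without a test. The hippocampal RNA came from beagles that had undergone either a sham operation or rapid atrial pacing for 2 weeks, an electrical drive of the atria used to bring on atrial fibrillation, with 3 libraries in each arm. The study set out to relate atrial fibrillation to cognitive impairment through vesicles released by the fat on the heart. No allele or agent is given for either arm. Neither the age or sex of the dogs nor the part of the hippocampus taken is stated in the sources used here, and it is not stated whether each library came from a separate dog.

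Neurons receive much of their cholesterol from glia, because lipoproteins of the blood do not cross into the brain. Astrocytes secrete APOE and CLU, the transporters ABCA1 and ABCG1 load these proteins with cholesterol and phospholipid, LCAT esterifies the cholesterol as the particle matures, and receptors of the LDL receptor family such as LRP1 and VLDLR bind and take up the particles. ABCA1, ABCG1, APOE and APOC1 are known targets of the liver X receptors, nuclear receptors that sense oxidised cholesterol.

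Libraries held 35003483 to 51789497 reads assigned to genes. Levels are in RPKM, which divides a gene's reads by its exon length and by the library's depth, so they can be set side by side between genes. Sham replicate 2 stood apart from the others, at 39.6 on a first principal component with 45.3% of the variance, where the other libraries lay between -13.5 and 8.61. Its summed neuron markers were the lowest of the 6 libraries, and its summed astrocyte, microglial, oligodendrocyte and choroid plexus markers were the highest. The choroid plexus sum there was mostly the marker TTR, at 449 of 456 RPKM. Sham replicate 3 stood apart on the second component, at -29.1. Of the hippocampal subfield markers, the pyramidal neuron gene NEUROD6 lay between 188 and 345 RPKM and the granule cell gene PROX1 between 4.82 and 7.90 RPKM in the 6 libraries, and BOK was below 0.5 RPKM on average.

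CLU and APOE were among the most abundant transcripts of this tissue. CLU, the chaperone-like apolipoprotein J, ranked 16 and APOE ranked 19 of 16090 tested genes by mean level. APOD followed at a mean of 213 RPKM, and the other 6 genes lay between 1.89 and 8.93 RPKM, from LRP1 through APOC1, ABCA1, VLDLR and LCAT to ABCG1. The drop from APOE to APOD and the drop from APOD to LRP1 held without overlap in all libraries. For the other neighbours in this order the ranges over the libraries overlapped. CLU lay above APOE in 5 of 6 libraries, LRP1 above APOC1 in 4, APOC1 above ABCA1 in 5 and VLDLR above LCAT in 5. Together the 9 genes took 0.688% to 0.905% of all assigned reads, nearly all of it from CLU and APOE. Between 98185 and 170597 reads per library stood behind APOE, against 103 to 190 behind APOC1 and 117 to 337 behind LCAT.

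**Figure D1:**
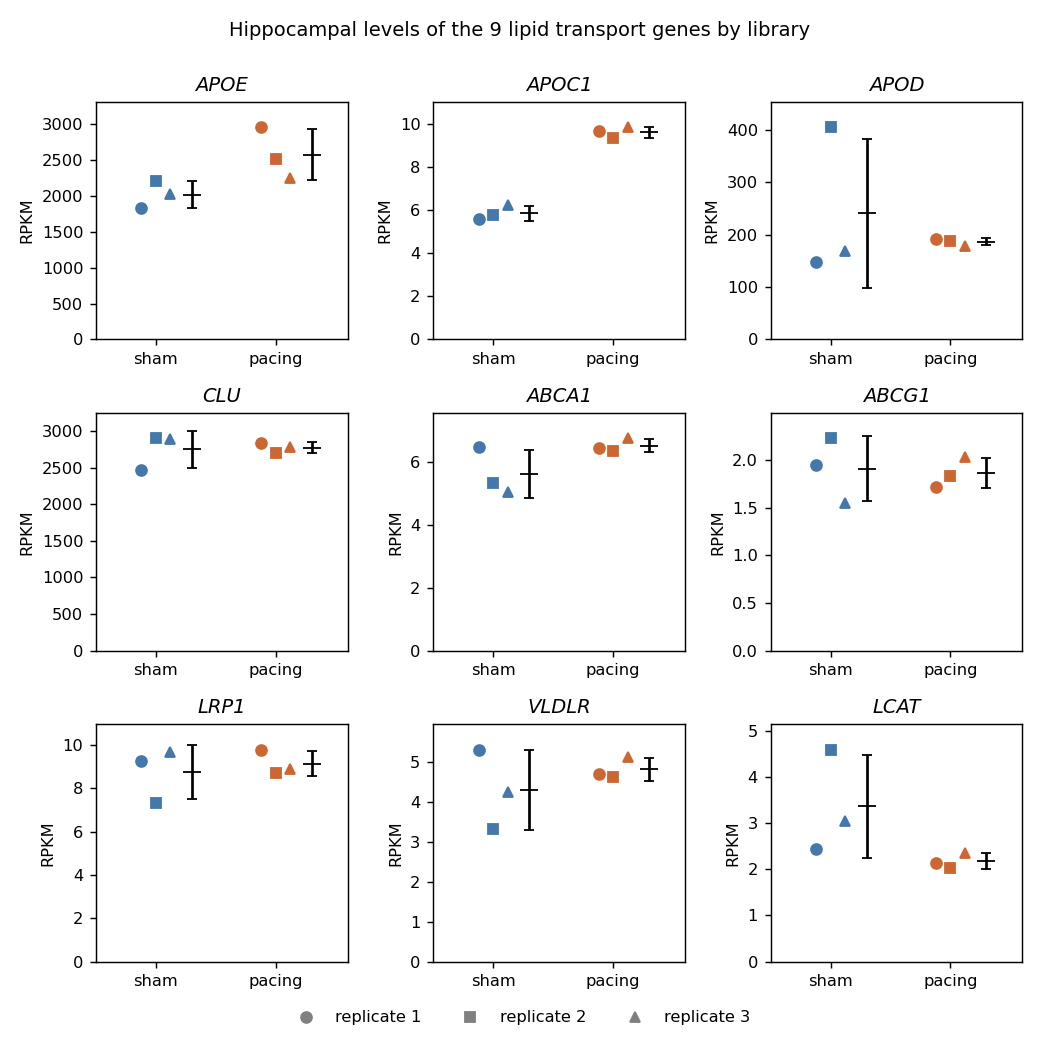
RPKM (vertical axis, from 0) of each gene in the 3 sham and 3 pacing libraries, with marker shape for the replicate and the arm mean ± SD beside the points. APOE and APOC1, which were picked for it, lie higher in every pacing library, LCAT lies lower in every pacing library, and APOD in sham replicate 2 lies far above the other 5 libraries.

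APOE, the main lipid carrier protein of the brain, stood at 2960.4, 2511 and 2255 RPKM in pacing replicates 1, 2 and 3 and at 1835, 2206 and 2023 RPKM in sham replicates 1, 2 and 3. The lowest pacing library lay just above the highest sham library. The arm means were 2576 ± 357 and 2021 ± 185 RPKM (SD, n = 3 each), a ratio of 1.27. The log2 difference was 0.34, and it ranged from 0.15 to 0.44 over the alternative settings, the smallest after quantile scaling, which gives every library the same set of ranked values. The RNA was taken from whole tissue, so more cells of a type and more RNA per cell cannot be told apart in this or any later value.

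APOC1, a small apolipoprotein that limits lipid uptake and lipase action, is encoded beside APOE. It stood at 9.66, 9.34 and 9.84 RPKM in pacing replicates 1, 2 and 3 and at 5.57, 5.75 and 6.22 RPKM in the sham replicates in the same order. The arms did not overlap, and the values lay close together within each arm. They rest on only 156 to 190 reads per pacing library and 103 to 135 per sham library. With so few reads, the closeness within an arm is not a measure of precision. The means were 9.61 ± 0.254 and 5.85 ± 0.333 RPKM (SD, n = 3 each), a ratio of 1.64 and a log2 difference of 0.63, which ranged from 0.43 to 0.77 over the alternative settings. Across all tested genes, 4.92% had every pacing library above every sham library. That share is given beside APOE and APOC1 for scale only, since the pair was picked for this pattern.

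APOE and APOC1 lie on the minus strand of chromosome 1 in CanFam3.1 (the dog assembly whose sequence names the table carries), APOE from 110525717 to 110528534 and APOC1 from 110520177 to 110522563, with 3153 bases between them. Their exons share no base with another gene model of the table. No tested gene around them had every pacing library above every sham library. TOMM40, the mitochondrial import channel next to APOE, named for its position, stood at 8.30 ± 1.22 RPKM in pacing and 7.87 ± 0.772 RPKM in sham (SD, n = 3 each). APOC4 and APOC2, the apolipoprotein genes on the other side, also named for their position, had too few reads to be tested, from 0.0408 to 0.349 RPKM and from 0.247 to 1.07 RPKM per library. Of 12 genes listed for this neighbourhood 8 were tested and 0 passed in limma or edgeR, with 0 at an unadjusted p under 0.05. They divided into 4 higher and 4 lower, with a median log2 difference of -0.02 against -0.04 over all genes. The adhesion molecule NECTIN2 stood at 3.91 ± 0.713 in pacing against 4.91 ± 0.561 RPKM in sham (adjusted p = 0.597). It was lower in every pacing library, as were 11.3% of all tested genes. GEMIN7 of the SMN complex stood at 1.05 ± 0.332 against 1.18 ± 0.0670 RPKM, and CLASRP, a splicing-related gene and the most abundant of the 8, at 23.8 ± 0.777 against 26.2 ± 5.83 RPKM.

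For the other 7 genes, the comparison of pacing with sham asked whether lipid carriers, transporters, enzyme and receptors differed between the arms. None of them passed in limma over all 16090 genes, and none passed in edgeR on the recovered reads. LCAT alone had an unadjusted p under 0.05. Of all tested genes, 0.0249% passed and 9.15% had an unadjusted p under 0.05. Of the 7, 4 had a higher and 3 a lower log2 mean in pacing, and 41.1% of all genes were higher.

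LCAT, the enzyme that esterifies cholesterol on nascent particles, was lower in every pacing library. It stood at 2.14, 2.02 and 2.36 RPKM in pacing replicates 1, 2 and 3 and at 2.44, 4.59 and 3.05 RPKM in sham replicates 1, 2 and 3. Sham replicate 2 was the highest, and sham replicate 1 lay just above the pacing libraries. The means were 2.17 ± 0.172 and 3.36 ± 1.11 RPKM (SD, n = 3 each), with a log2 difference of -0.43 (95% interval -0.85 to -0.01, unadjusted p = 0.0461, adjusted p = 0.543). The difference was -0.24 without sham replicate 2 (adjusted p = 0.482) and -0.59 without sham replicate 1 (adjusted p = 0.141). Over all tested genes 11.3% lay lower in every pacing library, so LCAT was 1 of 1813 such genes.

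APOD, a lipocalin of oligodendrocytes, astrocytes and perivascular cells that binds arachidonic acid, separated 1 library and not the arms. It stood at 191, 189 and 178 RPKM in pacing replicates 1, 2 and 3, and at 148 and 168 RPKM in sham replicates 1 and 3, while sham replicate 2 reached 405 RPKM. The coefficient of variation was 59.4% in sham and 3.58% in pacing. The log2 difference was -0.22 (95% interval -1.03 to 0.60, adjusted p = 0.867). Without sham replicate 2 it turned to 0.24 (unadjusted p = 0.0347, adjusted p = 0.385), with each pacing library above the remaining sham libraries. In the same setting 1871 of 15985 tested genes had an unadjusted p under 0.05 in limma. In sham replicate 2 the summed RPKM of 12 oligodendrocyte markers was 3083, against 1222 and 1697 in the other sham libraries and 1679.9 to 2086 in pacing. The summed RPKM of astrocyte markers was 3318 there against 1931 to 2438 elsewhere, and that of choroid plexus markers was 456 against 6.57 to 160.1. The choroid plexus sum rested on 1 gene, TTR, at 449 RPKM in sham replicate 2. Of the 10 choroid plexus markers listed, only 3 were abundant enough to be tested. Besides TTR these were KL and CLIC6, at 1.83 and 1.78 RPKM in that library. The part of these cell types in the APOD value was not tested.

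CLU, which binds lipid and misfolded proteins outside the cell, had overlapping arms. It stood at 2846, 2703 and 2787 RPKM in pacing replicates 1, 2 and 3 and at 2466, 2903 and 2894 RPKM in the sham replicates in the same order. The means were 2779 ± 72.1 and 2754 ± 250 RPKM (SD, n = 3 each), with a log2 difference of 0.02 (95% interval -0.28 to 0.31, adjusted p = 0.975) that turned negative under quantile scaling (-0.27). APOE thus lay closer to CLU in pacing than in sham. The ratio of APOE to CLU was 1.04, 0.929 and 0.809 in the pacing libraries and 0.744, 0.760 and 0.699 in the sham libraries. This ratio carries the choice of APOE with it.

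ABCA1, which exports cholesterol and phospholipid to lipid-poor apolipoproteins, stood at 6.43, 6.34 and 6.73 RPKM in pacing and at 6.46, 5.32 and 5.02 RPKM in sham. Sham replicate 1 lay among the pacing libraries and the other sham libraries lay below them. The log2 difference was 0.19 (95% interval -0.07 to 0.45, adjusted p = 0.628), with 0.28 without sham replicate 1 (adjusted p = 0.189) and 0.13 without sham replicate 3. Of its exons, 135 bases are shared with LOC111098115 on the opposite strand, and the strand setting of the counting is not stated. ABCG1, which passes cholesterol on to particles that already carry lipid, stood at 1.72, 1.83 and 2.04 RPKM in pacing and at 1.95, 2.23 and 1.55 RPKM in sham. The sham libraries spanned the pacing libraries on both sides. Its log2 difference of -0.02 (95% interval -0.30 to 0.26, adjusted p = 0.970) was smaller than the spread within either arm and turned positive under median-of-ratios and quantile scaling.

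LRP1, the large endocytic receptor for APOE-bearing particles, stood at 9.78, 8.70 and 8.87 RPKM in pacing and at 9.26, 7.31 and 9.65 RPKM in sham. VLDLR, a receptor for APOE and for the guidance protein reelin, stood at 4.70, 4.62 and 5.14 RPKM in pacing and at 5.32, 3.33 and 4.26 RPKM in sham. For both receptors the arms overlapped and sham replicate 2 was the lowest library, the library with the lowest summed neuron markers (2241 RPKM, against 3181 to 3536 elsewhere). The part of neuron content in these values was not tested. The log2 difference was 0.06 for LRP1 (95% interval -0.23 to 0.35, adjusted p = 0.894) and 0.15 for VLDLR (95% interval -0.20 to 0.50, adjusted p = 0.763). With each library left out in turn, LRP1 ran from -0.05 without sham replicate 2 to 0.13 without sham replicate 3. VLDLR ran from 0.01 without sham replicate 2 to 0.28 without sham replicate 1 (unadjusted p = 0.0565, adjusted p = 0.272).

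**Figure D2:**
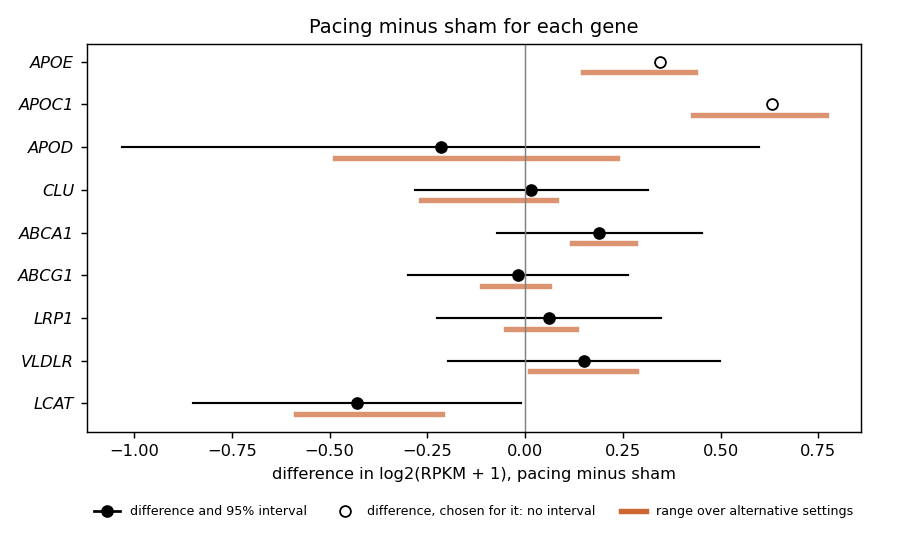
Difference in log2(RPKM + 1), pacing minus sham (horizontal axis), for each gene, with its 95% interval from limma as a black line and the range over the alternative settings as an orange line. The open points of APOE (0.34) and APOC1 (0.63) carry no interval because they were picked for this difference. The interval of LCAT ends at -0.01, those of the other 6 genes span 0, and the orange lines of APOD, CLU, ABCG1 and LRP1 cross 0.

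Variation between libraries was larger in sham than in pacing for all of the 9 genes but APOE, as it was for 78.2% of 16087 tested genes, whose median coefficient of variation was 17.0% in sham and 8.39% in pacing. The coefficient of variation was 13.9% in pacing and 9.17% in sham for APOE. For the other 8 genes it lay between 2.60% and 8.57% in pacing and between 5.70% and 59.4% in sham. Relative to each gene's mean over the 6 libraries on the log2 scale, sham replicate 2 was 1.01 above for APOD and 0.60 above for LCAT, and 0.35 below for VLDLR and 0.25 below for LRP1. APOE (-0.04) and CLU (0.07) were near their means in the same library. Its summed astrocyte markers were the highest, at 0.50 above the mean. GFAP alone made up 1525 of their 3318 RPKM there, against 561 to 901 RPKM of GFAP in the other libraries. The 9 genes thus differed from one another in which libraries were high.

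**Figure D3:**
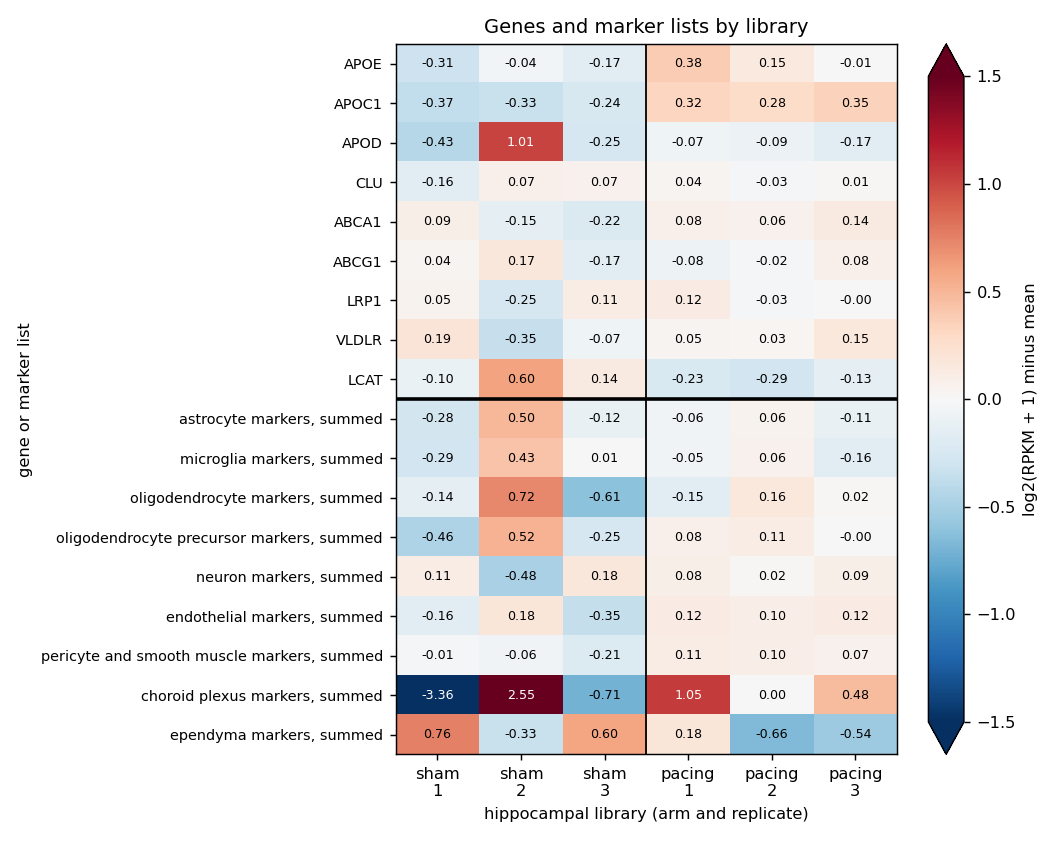
Level of each gene and of the summed markers of 9 cell types (rows) in each library (columns), as log2(RPKM + 1) minus its mean over the 6 libraries, with red above and blue below the mean and the colour scale ending at 1.5 in either direction. Sham replicate 2 is high for APOD and LCAT and for glial and choroid plexus markers (the last mostly TTR) and low for neuron markers. APOC1 is above its mean in the 3 pacing libraries only.

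Astrocyte and microglial markers, taken as a check on the cells that make APOE and APOC1, had summed levels that overlapped between the arms. Summed astrocyte markers were 2178 to 2438 RPKM in pacing and 1931 to 3318 RPKM in sham, with 4 of 11 tested markers higher. Summed microglial markers were 131 to 152 RPKM in pacing and 119.5 to 196 RPKM in sham, with 7 of 13 higher. A list of 12 genes of lipid-laden or activated microglia summed to 589 to 673 and 499 to 1177 RPKM, with 5 of 10 tested higher, or 8 under median-of-ratios scaling. Much of that sum was 1 gene, SPP1, at 313 to 370 RPKM in pacing and 245 to 803 RPKM in sham, highest in sham replicate 2. No listed astrocyte or microglial marker was at 0 in all libraries. Summed pericyte and smooth muscle markers lay at 43.3 to 44.6 RPKM in pacing and at 35.6 to 40.9 RPKM in sham. This sum was apart between the arms, as it was under median-of-ratios scaling, in the direction for which APOE and APOC1 were picked. Of its 9 tested markers 7 were higher, 2 of them in every pacing library, against 4.92% of all genes. In limma 1 of the 9 had an unadjusted p under 0.05 and 0 passed. Summed endothelial markers overlapped, at 57.0 to 58.1 RPKM in pacing and 41.5 to 60.3 RPKM in sham, but were apart under median-of-ratios scaling, at 58.0 to 59.0 against 39.8 to 57.4. Ependymal markers lay the other way. All 7 tested had a lower log2 mean in pacing, with a median of -0.49. Of these, 4 had an unadjusted p under 0.05 and 0 passed, and 3 (FOXJ1, HYDIN and DNAH11) were lower in every pacing library. Over all tested genes, 9.15% had an unadjusted p under 0.05 and 11.3% were lower in every pacing library. The summed level of the ependymal markers overlapped, at 14.0 to 25.8 RPKM in pacing and 17.8 to 38.99 RPKM in sham. The part of these 3 cell types in the values of the 9 genes was not tested.

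By profile over the 6 libraries, the genes most like APOC1 were CCDC113, SELPLG and HACD4, at a root-mean-square distance of 0.08 to 0.09 on the centred log2 scale among 11621 genes compared. CCDC113 encodes a ciliary protein, SELPLG the leukocyte ligand of selectins and HACD4 an enzyme of fatty acid elongation. SELPLG stood at 10.9, 11.1 and 10.7 RPKM in pacing and at 6.91, 6.64 and 6.22 RPKM in sham. The genes most like APOE were PPP1R35 (0.05), F3, which encodes tissue factor (0.07), and POLRMT, the mitochondrial RNA polymerase (0.08). F3 stood at 23.3, 17.6 and 18.2 RPKM in pacing and at 14.3, 16.3 and 14.9 RPKM in sham, with its highest library in pacing replicate 1, as for APOE. Since APOE and APOC1 were picked for higher values in pacing, genes near them in profile carry that choice with them.

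The profiles most like APOD were those of RTKN, ATP6V1C2 and C10H2orf40, each with its highest value in sham replicate 2, where RTKN reached 65.2 RPKM against 21.5 to 29.7 RPKM elsewhere. Those most like LCAT were HSPA5, the main chaperone of the endoplasmic reticulum, PRPF38B, a splicing factor, and ANKZF1, at distances of 0.02 to 0.04. HSPA5 stood at 94.0, 87.1 and 102 RPKM in pacing and at 102, 167 and 120.5 RPKM in sham, high in the same library as LCAT. Those most like VLDLR were CDKN2AIPNL, CHN1 and KRBA2, at 0.02 to 0.03, all lowest in sham replicate 2. All profiles share the same 6 libraries, so a library that stands apart sets much of the likeness.

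The wider lists of lipoprotein and sterol handling, counted together with the APOE-APOC1 gene neighbours, showed no called gene. Of 168 listed genes, 161 were in the table and 130 were tested. These 130 include the 8 tested neighbours, which were listed for position and not for lipid handling. In limma or edgeR 0 passed, with 3 (2.31%) at an unadjusted p under 0.05 in limma, against 9.15% of all genes. The log2 mean was higher in pacing for 57 (43.8%, against 41.1% of all genes) and lower for 73, and the median difference was -0.02. Under median-of-ratios scaling 72 of the 130 were higher, as were 53.1% of all genes. With this scaling, other apolipoproteins summed to 474 to 562 in pacing against 399 to 465 in sham. Receptors and adaptors summed to 407 to 433 against 344 to 386, and remodelling enzymes to 52.4 to 53.2 against 50.2 to 51.8. Those sums overlapped without the scaling, and the sums of the other pathway lists overlapped with it. In the deposited RPKM, the arms did not overlap for 15 of the 130 genes, 8 higher (6.15%) and 7 lower (5.38%), against 16.2% of all genes in either direction, 4.92% higher and 11.3% lower.

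Other apolipoproteins were led by APOA1, the core protein of high-density lipoprotein, made mainly by liver and gut. It stood at 452 ± 41.6 RPKM in pacing and 401 ± 30.9 RPKM in sham (SD, n = 3 each; log2 difference 0.17, adjusted p = 0.667), above APOD in every library. Of this list 7 genes were tested, of which 3 were higher. APOBR, a receptor for APOB-containing particles, stood at 5.01, 4.79 and 4.66 RPKM in pacing and at 3.10, 4.38 and 3.08 RPKM in sham (adjusted p = 0.483), and shares 266 exon bases with CLN3. APOLD1, an endothelial early response gene, stood at 45.6 ± 3.84 against 31.4 ± 13.3 RPKM (adjusted p = 0.547). APOB, the scaffold of low-density lipoprotein, was below 0.5 RPKM on average.

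Lipoprotein receptors and their adaptors were higher in 13 of 23 (median log2 difference 0.01), and 0 had an unadjusted p under 0.05. LRP8, the APOE and reelin receptor of neurons, stood at 18.6, 23.2 and 19.5 RPKM in pacing and at 20.2, 12.7 and 13.0 RPKM in sham (adjusted p = 0.550). Its level was higher than that of VLDLR in every library. The lysosomal membrane protein SCARB2 stood at 22.6 ± 1.05 against 19.0 ± 1.95 RPKM (adjusted p = 0.547) and LRP3 at 0.911 ± 0.416 against 0.498 ± 0.0464 RPKM (adjusted p = 0.573). LRPAP1, the chaperone of this receptor family and the most abundant of the list, stood at 219 ± 12.6 against 196 ± 21.2 RPKM. Every pacing library was above every sham library for SCARB2, LRP3 and LRP4, a receptor of the neuromuscular junction and of Wnt signalling (9.46 ± 0.373 against 8.27 ± 0.256 RPKM). The opposite held for the Wnt co-receptor LRP6, at 5.24 ± 0.167 in pacing against 6.01 ± 0.115 RPKM in sham. LRP4 and LRP6 were named after their values were seen, and neither passed (adjusted p = 0.597 and 0.605). For LRP8 sham replicate 1 lay among the pacing libraries.

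ABC and related lipid transporters were higher in 6 of 15 (median -0.05), or 8 of 15 under median-of-ratios scaling. ABCB1, the P-glycoprotein pump of the blood-brain barrier, stood at 6.09, 5.76 and 5.85 RPKM in pacing and at 5.25, 4.10 and 3.26 RPKM in sham (log2 difference 0.42, unadjusted p = 0.0227, adjusted p = 0.476). ABCC1, an exporter of conjugated organic anions, stood at 0.548 ± 0.0506 against 0.860 ± 0.250 RPKM (adjusted p = 0.565), lower in every pacing library. The phospholipid flippase ATP8A1 stood at 23.3 ± 1.56 against 19.0 ± 4.38 RPKM, and ABCD3, a peroxisomal fatty acid transporter and the most abundant of the list, at 28.8 ± 1.11 against 28.9 ± 3.62 RPKM.

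The genes of the liver X receptors themselves lay lower in pacing under every scaling, without passing. NR1H3, liver X receptor alpha, stood at 0.999, 1.32 and 1.23 RPKM in pacing and at 1.54, 1.89 and 1.39 RPKM in sham (adjusted p = 0.559). NR1H2, liver X receptor beta, stood at 13.0, 13.5 and 13.0 RPKM in pacing and at 14.0, 20.4 and 15.5 RPKM in sham (adjusted p = 0.566). For both genes every pacing library was below every sham library, as it was for 11.3% of all genes. LPCAT3, a phospholipid remodelling enzyme that liver X receptors induce, stood at 1.18 ± 0.224 against 1.55 ± 0.164 RPKM (adjusted p = 0.595). SCD, the stearoyl-CoA desaturase and the most abundant of the list, stood at 95.2 ± 2.42 against 108 ± 23.9 RPKM. In all, 6 of 21 regulators were higher (median -0.05), or 11 of 21 under median-of-ratios scaling.

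Of 22 cholesterol synthesis genes 10 were higher in pacing (median -0.00), or 14 under median-of-ratios scaling. TM7SF2, a sterol reductase, stood at 1.08, 0.968 and 1.26 RPKM in pacing and at 1.30, 1.84 and 1.78 RPKM in sham (unadjusted p = 0.0294, adjusted p = 0.494). DHCR7, the reductase of the last step, stood at 2.30 ± 0.312 against 2.89 ± 0.433 RPKM (adjusted p = 0.611), and squalene epoxidase SQLE at 26.7 ± 0.927 against 23.8 ± 1.73 RPKM (adjusted p = 0.628). IDI1, an isomerase early in the pathway and the most abundant of the list, stood at 72.7 ± 5.23 against 67.1 ± 6.88 RPKM. The 22 genes lay on either side of 0.

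Sterol turnover and intracellular transport genes were higher in 8 of 22 (median -0.08) and lipoprotein remodelling enzymes in 7 of 12 (median 0.01). The lipid droplet protein PLIN3 stood at 12.1 ± 0.852 against 19.6 ± 8.65 RPKM (adjusted p = 0.591), with its highest value of 28.7 RPKM in sham replicate 2. The caveolar protein CAV1 stood at 4.30 ± 0.658 against 5.48 ± 1.05 RPKM and cholesterol 25-hydroxylase CH25H at 2.06 ± 0.0966 against 1.54 ± 0.637 RPKM. FABP7, the fatty acid binding protein of radial glia and astrocytes, was the most abundant, at 399 ± 28.5 against 424 ± 49.1 RPKM. Of the remodelling enzymes, NCEH1, which hydrolyses cholesterol esters, stood at 8.07 ± 0.142 against 7.06 ± 0.740 RPKM, PON2 at 6.24 ± 0.779 against 5.53 ± 0.378 RPKM and the lipase inhibitor ANGPTL4 at 0.465 ± 0.126 against 0.724 ± 0.493 RPKM. PLTP, which moves phospholipid between particles, was the most abundant of them, at 7.65 ± 0.407 against 8.05 ± 1.02 RPKM. Adjusted p-values of these 7 genes other than PLIN3 lay between 0.611 and 0.883.

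**Figure D4:**
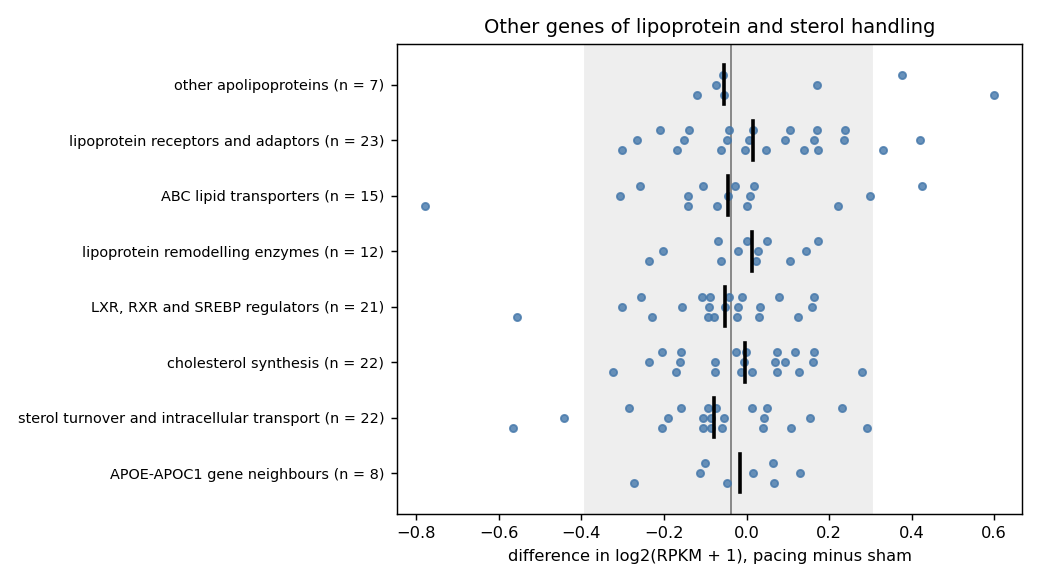
Difference in log2(RPKM + 1), pacing minus sham (horizontal axis), of each tested gene (points, offset vertically only to part them) in 8 lists, with the list median as a black bar. The lists hold genes of lipoprotein and sterol handling, except the APOE-APOC1 gene neighbours, which were listed for position. The grey band holds the middle 90% of all 16090 tested genes, from -0.39 to 0.30, and the grey line their median of -0.04. The list medians lie between -0.08 and 0.01.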

How the data were processed

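Hippocampal mRNA of 6 libraries was analysed. Trimmomatic 0.36, STAR 2.5.3a and featureCounts are named in the submitters' processing notes, without order, strand setting or annotation release. The authors deposited RPKM. RPKM times gene length, divided by the smallest such value above 0 in the library (taken as 1 read), gave whole reads (within 0.001 of a read) for 100% of values. Genes with a mean of at least 0.5 RPKM (16090, all 9 members among them) were tested in R 4.3.3 with limma 3.58.1 (trend) on log2(RPKM + 1), two-sided, with Benjamini-Hochberg adjustment over all of them at 0.05. A fold on this scale understates the change of low genes. Differences are pacing minus sham. P-values measure the spread between libraries, which may be technical.

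Alternatives (16) changed the pseudocount, filter, scaling, variance model or weights, used edgeR 4.0.16 on the recovered reads, added the replicate block or left out 1 library. On simulated reads for this comparison (16071 genes, dispersion 0.0404), limma found 12.0% of genes changed 1.5-fold and 77.6% of those changed 2-fold. The simulation gave every gene the same dispersion in both arms. In the data, sham varied more than pacing, so these shares may not hold for it.

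The members and lists were chosen with earlier results of these data known. Named were the members and, per list, genes that passed, the 3 with the smallest p and the most abundant. For members spanning at least 0.5 log2 units, the 3 genes nearest in centred profile were named. TOMM40, APOC4, APOC2, APOB, LRP4, LRP6, NEUROD6, PROX1 and BOK fall outside this rule. So do ABCA9 and the markers TTR, KL, CLIC6, GFAP, SPP1, FOXJ1, HYDIN and DNAH11. The last 3 were named because they were lower in every pacing library. Exosome miRNA values deposited by the authors are RPM, in a table of 12159 to 25171 listed reads per library, and were described only.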

Additional observations from a re-analysis of the deposited data

How the results depend on the processing

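Of the 7 tested members and of the 130 tested genes of the pathway and gene neighbour lists, 0 passed under any of the 16 alternatives. The count of all passing genes, 4, was 7 with no low-value filter, 23 with array weights and 7 with the replicate block. It ran from 3 to 95 when each library was left out in turn, the highest without sham replicate 1, and was 9 without sham replicate 2. Same-numbered libraries correlated at -0.11, 0.06 and -0.01 in their deviations from the arm means, and not every library correlated best with its own number, so the numbers were not taken as pairs.

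APOE, APOC1, ABCA1, VLDLR and LCAT kept their sign in all 16 alternatives. APOD turned to 0.016 with array weights, and lay between -0.49 and 0.24 with a library left out, positive without sham replicate 2. CLU turned to -0.27 under quantile scaling and lay between -0.061 and 0.056 with a library left out, negative without pacing replicate 1 or sham replicate 1. ABCG1 turned to 0.014 in edgeR, 0.049 under quantile scaling, 0.023 under median-of-ratios scaling and 0.061 with array weights, and lay between -0.11 and 0.060 with a library left out, positive without pacing replicate 1 or sham replicate 2. It was not tested at a minimum of 2 RPKM. LRP1 turned to -0.0042 with array weights and lay between -0.049 and 0.13 with a library left out, negative without sham replicate 2. APOC1 and LCAT, with the fewest reads, have the largest counting error, and 3 libraries per arm limit all values.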

Other observations

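Several microRNAs are known to repress ABCA1, and 10 of 12 that were looked up had an entry in the epicardial fat exosome libraries of the same arms, in RPM, which divides the reads of an entry by the listed total of its library. The table does not name the arm of the hairpin. The most abundant was cfa-miR-26a, at 46714, 33192 and 36366 RPM in pacing and 23803, 50852 and 36344 RPM in sham. It was followed by cfa-miR-148a, at 11185, 7944 and 15763 RPM in pacing and 8229, 18633 and 5170 RPM in sham. The arms overlapped for all 10, and 4.14% of 314 exosome entries with a mean of at least 10 RPM did not overlap. The best known repressor of ABCA1, cfa-miR-33a, had 1 read in all 6 libraries, and cfa-miR-144 had 2. These values were not tested.

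ABCA9, a transporter of the ABCA6-like cluster that was not among the genes named by rule and was chosen after its values were seen, stood at 7.12, 8.05 and 7.28 RPKM in pacing and 5.77, 25.7 and 16.0 RPKM in sham (log2 difference -0.78, adjusted p = 0.618). It had the lowest log2 difference of the 15 tested transporters, and sham replicates 2 and 3 were high while sham replicate 1 was below the pacing libraries.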
